A study of Mus musculus with 4 samples.

Results

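Chemokines and their receptors were followed through the 8 RNA pools of a ureter culture experiment. The set took in every gene name on the array that follows the systematic nomenclature of chemokine ligands and receptors, together with the atypical receptors *Ackr1* to *Ackr4* and *Pf4*, which gave 58 genes, 36 ligands and 22 receptors, of 29924 gene names. Ureters of NMRI mice were explanted at P0, the day of birth, and cultured for 8 days with 2 µM purmorphamine, an agonist of SHH signaling, or with its solvent DMSO. *Pparg-cKO* ureters were *Pax2-cre/+; Pparg fl/fl*, and control ureters came from littermates without cre that carried the floxed *Pparg* allele, listed as *Pparg* (fl/?). Both genotypes thus shared the floxed allele, the outbred background and the culture, and both had DMSO and purmorphamine pools. *Pax2-cre* deletes in the ureteric epithelium, whereas chemokines are made by epithelial, mesenchymal, endothelial and immune cells alike, and the arrays measured the whole tube. Each of the 4 groups had 2 pools, a male (replicate 1) and a female (replicate 2), and the number of ureters in a pool was not stated. An array compared purmorphamine with DMSO within a genotype and sex, and the dyes were exchanged between the sexes.

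The only *Pparg* probe does not check the deletion, since the floxed allele loses exons and still makes a transcript, and its log2 intensities were 14.79 to 15.31 in control pools and 15.55 to 16.10 in *Pparg-cKO* pools. *Shh* fell by 2.93 on the log2 scale in *Pparg-cKO* relative to control ureters with DMSO (adjusted p = 0.00215, limma with Benjamini-Hochberg adjustment). *Ptch1*, the receptor gene that SHH signaling induces, rose with purmorphamine by 1.62 in *Pparg-cKO* ureters (adjusted p = 0.0140) and by 1.00 in control ureters (adjusted p = 0.0427). Between 66.3% and 70.5% of spots were well above background per pool.

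Chemokines are small secreted proteins that form gradients on cell surfaces and matrix, and cells carrying the matching G protein-coupled receptor migrate along them. CC ligands mostly attract monocytes, macrophages, eosinophils and T cells, CXC ligands related to *Cxcl1* attract neutrophils, and homeostatic ligands such as *Cxcl12* place cells during development. Atypical receptors bind ligands without G protein signaling and clear or transport them. In the urinary tract chemokines are best known for bringing neutrophils and macrophages into the wall during infection, and many of the inflammatory ligands are induced through NF-κB.

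The promoters of the neighboring genes *Cxcl1*, *Cxcl2* and *Cxcl3* are shown because *Cxcl1* and *Cxcl3* were among the ligands called lower with purmorphamine, as described beside their values, and because all 3 windows hold the same NF-κB motif. The windows run from 250 bases before to 50 bases after the RefSeq start on GRCm38.p6, all on the plus strand, at chr5:90890995-90891294 for *Cxcl1*, chr5:90903649-90903948 for *Cxcl2* and chr5:90785851-90786150 for *Cxcl3*. Capitals mark the motif GGAATTTCC, which begins 70, 96 and 72 bases before the start, respectively.
Cxcl1: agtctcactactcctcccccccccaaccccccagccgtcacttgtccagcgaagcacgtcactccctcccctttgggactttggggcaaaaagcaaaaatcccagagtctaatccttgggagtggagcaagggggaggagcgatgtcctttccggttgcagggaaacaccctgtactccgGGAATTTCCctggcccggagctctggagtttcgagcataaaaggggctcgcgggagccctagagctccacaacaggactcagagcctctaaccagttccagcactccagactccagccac
Cxcl2: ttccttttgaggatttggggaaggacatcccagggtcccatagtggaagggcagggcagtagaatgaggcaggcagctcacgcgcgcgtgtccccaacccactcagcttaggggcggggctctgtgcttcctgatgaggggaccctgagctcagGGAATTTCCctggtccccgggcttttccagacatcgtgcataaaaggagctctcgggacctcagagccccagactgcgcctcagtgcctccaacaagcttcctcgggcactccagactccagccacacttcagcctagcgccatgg
Cxcl3: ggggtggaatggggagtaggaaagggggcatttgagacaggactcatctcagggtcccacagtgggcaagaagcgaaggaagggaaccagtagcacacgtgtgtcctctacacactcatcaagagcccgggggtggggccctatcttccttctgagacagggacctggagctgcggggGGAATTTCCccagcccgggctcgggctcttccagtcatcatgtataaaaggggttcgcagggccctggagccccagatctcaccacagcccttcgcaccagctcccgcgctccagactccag
The motif was chosen after the values had been seen and was searched on both strands. It lay in 104 of all 32851 RefSeq windows (0.317%). Of the 43 members with a window (47 windows), 5 held it, namely *Cxcl1*, *Cxcl2*, *Cxcl3*, *Cxcl10* and *Ccr3*. The first 3 follow from the choice of the motif, so the count cannot be read as an enrichment. Another 15 members had no window and were not searched, among them *Cxcl5*, *Ccl2* and *Ccl7*. Of the 10 members that were lower with purmorphamine in *Pparg-cKO* ureters and had a window, 2 held it, *Cxcl1* and *Cxcl3*.

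A member was counted as detected in a pool when a share over 0.5 of the spots of at least 1 of its probes was well above background. Between 43 and 47 of the 58 members were detected per pool (74.1% to 81.0%), beside 64.7% to 68.8% of all gene names. In all 8 pools 42 members were detected, a further 6 in some pools, and 10 in none. The last were the ligands *Ccl20*, *Ccl22*, *Ccl26*, *Cxcl17* and *Xcl1* and the receptors *Ccr9*, *Ccr10*, *Cxcr1*, *Cxcr5* and *Xcr1*. All 5 neutrophil-attracting CXC ligands, all 11 inflammatory CC ligands, all 3 interferon-induced CXC ligands and all 4 atypical receptors were detected in every pool. The receptors that the neutrophil attractants use were hardly measured. *Cxcr1* was detected in none of the pools, and *Cxcr2* was above background only in the female *Pparg-cKO* pool with DMSO, at a log2 intensity of 7.02. *Ccl20*, the ligand of CCR6, lay at 5.86 to 6.06 in the 8 pools, below the lowest level measured above background (6.28 to 6.50).

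Of the 58 members, 45 entered the tests, 30 ligands and 15 receptors, because some group had them well above background in its male and its female pool. The other 13 are the 10 without any detection and *Ccl1*, *Ccr2* and *Cxcr2*. Levels are log2 intensities of a member's brightest tested probe, they are compared between pools and not between genes, and where a pair of values is given for a group the male pool comes first. Changes are log2 fold changes, each given with the standard error of the fit after ±, and where both genotypes are set side by side *Pparg-cKO* comes first. The 45 stand for members bright enough to test and not for all 58.

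With purmorphamine, inflammatory chemokine ligands were lower in ureters of both genotypes. In *Pparg-cKO* ureters 17 of the 45 tested members were lower and 1 was higher than with DMSO, which was 37.8% and 2.22% of them, beside 3.1% lower and 2.02% higher among the 20229 genes tested (limma, adjusted p under 0.05 after Benjamini-Hochberg adjustment). In control ureters 12 members were lower and 0 were higher, 26.7% of them beside 1.12% lower and 0.405% higher among all genes. At an unadjusted p under 0.05, 30 members were lower in each genotype, beside 12.4% of all genes in *Pparg-cKO* and 9.83% in control ureters, and 3 and 1 were higher, beside 9.86% and 9.78%. The median log2 fold change of the members was -0.63 in *Pparg-cKO* and -0.80 in control ureters, against -0.00 and 0.02 over all genes. On both arrays of a genotype, 35 of the 45 members were lower with purmorphamine, in *Pparg-cKO* as in control ureters. This count was not made for all genes, so it describes the direction only.

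Most of these calls were ligands. Of 30 ligands, 16 were lower in *Pparg-cKO* ureters (median -1.34) and 11 in control ureters (median -1.24). Of 15 receptors, 1 was lower in each genotype and 1 was higher in *Pparg-cKO* ureters, *Ackr3* (medians -0.31 and -0.30 in *Pparg-cKO* and control ureters). The number of calls depended on single arrays, and the share called among all genes moved as well. With an array left out the median of the members lay between -0.80 and -0.63 in *Pparg-cKO* and between -0.83 and -0.69 in control ureters. On the processed signals of the scanner software no gene of the array passed the adjusted threshold in these comparisons, and 28 members in *Pparg-cKO* and 25 in control ureters were lower at an unadjusted p under 0.05.

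**Figure D1:**
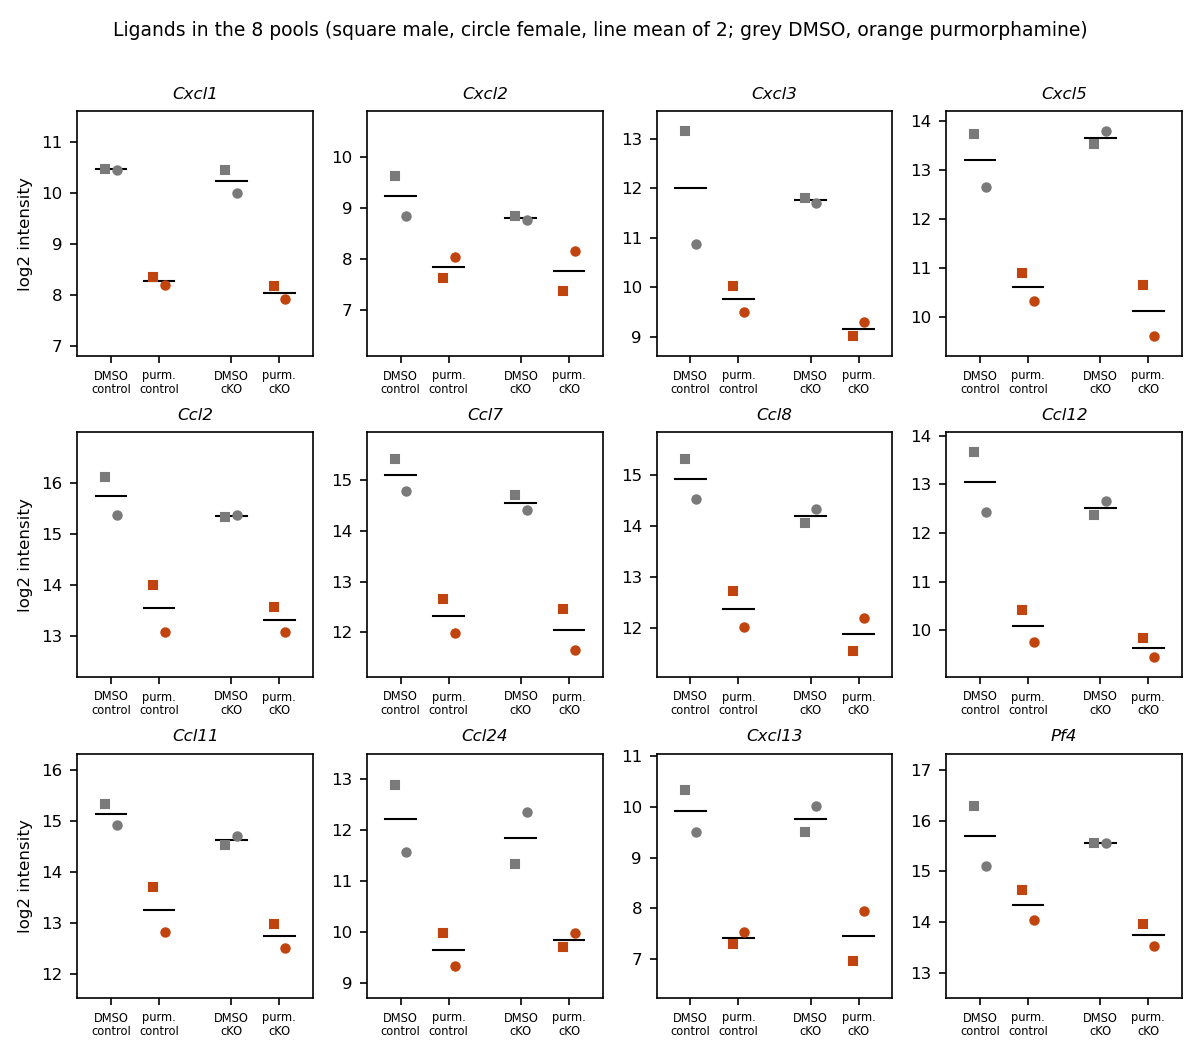
Log2 intensity (y axis) of 12 ligands in the 8 pools, with DMSO pools in grey and purmorphamine pools in orange, squares male, circles female and lines the mean of 2 pools; the y axes differ between panels and do not start at 0. The ligands were chosen with earlier results known, and all but *Cxcl2* were called lower in *Pparg-cKO* ureters. That both purmorphamine pools of a genotype lie below its DMSO pools in these panels therefore describes the choice and is no further support.

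Neutrophil-attracting CXC ligands were lower with purmorphamine in 4 of 5 cases in *Pparg-cKO* ureters (median -2.18) and in 2 of 5 in control ureters (median -2.19). *Cxcl5*, which acts on CXCR2 and is made by many epithelia, had log2 intensities of 13.52 and 13.79 in the *Pparg-cKO* pools with DMSO and 10.65 and 9.61 with purmorphamine. In control pools *Cxcl5* was at 13.74 and 12.65 with DMSO and 10.90 and 10.33 with purmorphamine. The treatments did not overlap in either genotype, and the level dropped by 11.5-fold in *Pparg-cKO* (log2 fold change -3.53 ± 0.33, adjusted p = 0.0164) and 5.99-fold in control ureters (-2.58 ± 0.33, adjusted p = 0.0443), both from limma.

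*Cxcl1*, another CXCR2 ligand, was at 10.46 and 10.01 in *Pparg-cKO* pools with DMSO and at 8.17 and 7.93 with purmorphamine. Control pools had 10.48 and 10.45 with DMSO and 8.35 and 8.20 with purmorphamine. All 4 DMSO pools thus stood above all 4 purmorphamine pools, and the fold changes were nearly the same size, -2.18 ± 0.11 (adjusted p = 0.00977) in *Pparg-cKO* and -2.19 ± 0.11 (adjusted p = 0.0115) in control ureters with limma, which is 4.54-fold and 4.56-fold lower. *Cxcl3*, which also acts on this receptor, went from 11.81 and 11.71 to 9.01 and 9.29 in *Pparg-cKO* pools, a log2 fold change of -2.61 ± 0.41 (adjusted p = 0.0389) with limma. In control pools it went from 13.15 and 10.86 to 10.03 and 9.49, where the DMSO pools lay far apart and the value of -2.25 ± 0.41 (adjusted p = 0.0823) did not pass the threshold in limma.

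*Cxcl15*, known from the lung, was at 7.95 and 8.57 with DMSO and 6.86 and 6.84 with purmorphamine in *Pparg-cKO* pools, a log2 fold change of -1.41 ± 0.24 (adjusted p = 0.0459) with limma. In control pools it was at 8.25 and 7.18 against 6.67 and 6.36, -1.20 ± 0.24 (adjusted p = 0.0954) with limma and not past the threshold. Its purmorphamine levels lay close to the lowest level measured above background (6.28 to 6.50), so the size of its change is uncertain. *Cxcl2*, whose promoter is among those shown, was not called in either genotype. Its levels were 8.85 and 8.77 with DMSO and 7.37 and 8.17 with purmorphamine in *Pparg-cKO* pools and 9.63 and 8.84 against 7.64 and 8.04 in control pools, and limma gave -1.04 ± 0.34 (adjusted p = 0.166) and -1.40 ± 0.34 (adjusted p = 0.127). The treatments did not overlap here either, but the purmorphamine pools of the sexes lay further apart than those of *Cxcl1*.

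Of the 8 tested neutrophil markers, 4 were highest in the same pool, the female *Pparg-cKO* pool with DMSO, namely *S100a8*, *S100a9*, *Ltf* and *Camp*. None (0) of the markers was called in either genotype by limma (5 were lower at an unadjusted p under 0.05 in *Pparg-cKO* and 2 in control ureters), with medians of -1.22 and -0.43. *S100a9* was at 14.87 and *S100a8* at 13.33 in that pool, the one with *Cxcr2* above background, while the other 7 pools had 6.21 to 9.56 and 6.82 to 9.17. The markers *Csf3r*, *Elane*, *Ly6g* and *Mpo* were highest in other pools, and *Ly6g* had 12.15 in the male and 11.81 in the female *Pparg-cKO* pool with DMSO. The summed neutrophil marker intensity was 27730 to 67290 in *Pparg-cKO* pools with DMSO and 19090 to 28440 with purmorphamine, and 19700 to 22060 and 15960 to 23190 in control pools. The part of the neutrophil markers in the ligand result was not tested.

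Inflammatory CC ligands were lower with purmorphamine in 10 of 11 cases in *Pparg-cKO* and in 8 of 11 in control ureters, with a median of -1.87 in both. *Ccl2*, *Ccl7* and *Ccl12*, the ligands of CCR2 that recruit monocytes, were all lower. *Ccl2* had 15.34 and 15.37 in *Pparg-cKO* pools with DMSO and 13.57 and 13.08 with purmorphamine, and 16.11 and 15.37 against 13.99 and 13.09 in control pools. It was 4.10-fold lower in *Pparg-cKO* (-2.04 ± 0.15, adjusted p = 0.0140) and 4.60-fold lower in control ureters (-2.20 ± 0.15, adjusted p = 0.0189) with limma, without overlap between treatments.

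*Ccl7* went from 14.70 and 14.40 to 12.46 and 11.65 in *Pparg-cKO* pools and from 15.40 and 14.78 to 12.66 and 11.99 in control pools. The difference was larger than the gap between male and female pools in both genotypes, -2.49 ± 0.15 (adjusted p = 0.0111) and -2.77 ± 0.15 (adjusted p = 0.0136) with limma. *Ccl12* went from 12.36 and 12.65 to 9.84 and 9.44 and from 13.66 and 12.44 to 10.41 and 9.76, and was 7.29-fold and 7.82-fold lower (-2.87 ± 0.22, adjusted p = 0.0142 and -2.97 ± 0.22, adjusted p = 0.0189 with limma). Among the tested members, *Ccl12* had the largest fall in control ureters and *Cxcl5* the largest in *Pparg-cKO* ureters. CCR2 itself could not be followed, since *Ccr2* was above background only in the female *Pparg-cKO* pool with DMSO.

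*Ccl8*, a CC ligand of monocytes and T cells, had 14.06 and 14.34 with DMSO against 11.55 and 12.20 with purmorphamine in *Pparg-cKO* and 15.33 and 14.53 against 12.73 and 12.01 in control pools. It was 5.01-fold and 5.87-fold lower (-2.33 ± 0.13, adjusted p = 0.00977 and -2.55 ± 0.13, adjusted p = 0.0115 with limma), with no overlap. The eotaxins *Ccl11* and *Ccl24*, which attract eosinophils through CCR3, were lower as well. *Ccl11* was at 14.53 and 14.72 with DMSO against 12.99 and 12.52 with purmorphamine in *Pparg-cKO* and at 15.34 and 14.93 against 13.70 and 12.83 in control pools, -1.87 ± 0.20 (adjusted p = 0.0204) and -1.87 ± 0.20 (adjusted p = 0.0362) with limma. *Ccl24* was at 11.34 and 12.36 with DMSO against 9.70 and 9.97 with purmorphamine in *Pparg-cKO* and at 12.88 and 11.57 against 9.97 and 9.33 in control pools, -2.01 ± 0.24 (adjusted p = 0.0242) and -2.58 ± 0.24 (adjusted p = 0.0307). Both eotaxins were higher in every DMSO pool than in any purmorphamine pool.

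Ligands of CCR1 had smaller differences. *Ccl9*, a CCR1 ligand of rodents, went from 15.64 and 15.22 to 14.30 and 13.78 in *Pparg-cKO* and from 15.93 and 15.20 to 14.43 and 14.06 in control pools, -1.39 ± 0.13 (adjusted p = 0.0164) and -1.32 ± 0.13 (adjusted p = 0.0319) with limma. *Ccl6*, its close relative, went from 16.30 and 16.14 to 15.37 and 14.41 and from 16.45 and 16.00 to 15.28 and 14.60, with -1.33 ± 0.21 (adjusted p = 0.0389) and, not past the threshold, -1.29 ± 0.21 (adjusted p = 0.0684). Neither overlapped between treatments within a genotype.

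*Ccl3*, which acts on CCR1, had 12.58 and 12.63 with DMSO against 11.74 and 11.72 with purmorphamine in *Pparg-cKO* and 13.51 and 12.44 against 12.05 and 11.52 in control pools, -0.87 ± 0.16 (adjusted p = 0.0487) and -1.19 ± 0.16 (adjusted p = 0.0461) with limma. *Ccl5*, a T cell and monocyte attractant, had 10.18 and 10.31 with DMSO against 9.0 and 9.0 with purmorphamine in *Pparg-cKO* and 10.57 and 9.47 against 9.39 and 9.02 in control pools, and passed the threshold only in the first, with -1.25 ± 0.19 (adjusted p = 0.0375) against -0.82 ± 0.19 (adjusted p = 0.117). *Ccl4*, the neighbor of *Ccl3*, had 12.48 and 12.33 with DMSO against 11.79 and 11.77 with purmorphamine in *Pparg-cKO* and 13.15 and 12.28 against 11.88 and 11.59 in control pools, and was called in neither, -0.63 ± 0.16 (adjusted p = 0.107) and -0.98 ± 0.16 (adjusted p = 0.0717). The treatments were separate in each genotype for all 3 genes, although by little for *Ccl5* in control pools.

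Most inflammatory ligands are encoded in clusters of neighboring genes. On chromosome 11 of mm9, the build of the probe positions, the probes of *Ccl2*, *Ccl7*, *Ccl11*, *Ccl12* and *Ccl8* lie at chr11:81850650-81930167, and all 5 were lower in both genotypes (medians -2.33 in *Pparg-cKO* and -2.55 in control ureters). Farther along, at chr11:83339296-83478111, *Ccl5*, *Ccl9*, *Ccl6*, *Ccl3* and *Ccl4* had medians of -1.25 and -1.19, and 4 of 5 were lower in *Pparg-cKO* and 2 of 5 in control ureters. *Cxcl5*, *Pf4*, *Cxcl3*, *Cxcl15*, *Cxcl1* and *Cxcl2*, at chr5:91190490-91334593, were lower in 5 of 6 cases in *Pparg-cKO* (median -1.99) and in 2 of 6 in control ureters (median -1.79). The interferon-induced group at chr5:92752796-92788626, *Cxcl9*, *Cxcl10* and *Cxcl11*, had 0 of 3 called in either genotype by limma. Its medians were -1.20 and -0.71, with ranges of -1.67 to 0.02 in *Pparg-cKO* and -1.35 to 0.05 in control ureters.

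Among homeostatic CXC ligands 1 of 4 was lower in each genotype, *Cxcl13*, the attractant of B cells in lymphoid follicles. Its levels were 9.50 and 10.00 with DMSO and 6.96 and 7.94 with purmorphamine in *Pparg-cKO* and 10.33 and 9.49 against 7.30 and 7.53 in control pools. That is 4.93-fold and 5.63-fold lower without overlap (-2.30 ± 0.28, adjusted p = 0.0242 and -2.49 ± 0.28, adjusted p = 0.0384 with limma). Of 5 B cell markers 3 were above background in none of the pools and *Cd79b*, a part of the B cell receptor, in all 8. *Cd79b* was at 8.32 and 8.48 with DMSO against 7.72 and 7.71 with purmorphamine in *Pparg-cKO* and at 8.26 and 7.78 against 7.20 and 7.20 in control pools, separate in both and not called (-0.68, adjusted p = 0.0745 and -0.82, adjusted p = 0.0831 with limma). The summed B cell marker intensity was 416.1 to 448.7 with DMSO and 299.7 to 301.6 with purmorphamine in *Pparg-cKO* pools, and 325.1 to 403.9 and 237.8 to 242.4 in control pools. The part of these markers in the result was not tested.

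*Cxcl12*, the stromal ligand of CXCR4 and ACKR3, was close to the threshold. It was at 15.26 and 15.48 with DMSO and 14.34 and 13.70 with purmorphamine in *Pparg-cKO* pools and at 15.34 and 15.23 against 14.83 and 14.14 in control pools. The treatments were separate, and limma gave -1.35 ± 0.25 (adjusted p = 0.0527) and -0.80 ± 0.25 (adjusted p = 0.182), so that neither was called. Its second tested probe had smaller values, -0.69 and -0.44. *Cxcl14*, an ancient chemokine of epithelia and stroma, was at 11.97 and 12.27 with DMSO against 11.17 and 11.43 with purmorphamine in *Pparg-cKO* pools and at 12.36 and 11.40 against 11.63 and 11.28 in control pools, where the treatments overlapped (-0.82 ± 0.17, adjusted p = 0.0631 and -0.42 ± 0.17, adjusted p = 0.258 with limma).

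*Pf4*, platelet factor 4, which megakaryocytes and some macrophages make, was at 15.55 and 15.56 with DMSO against 13.97 and 13.54 with purmorphamine in *Pparg-cKO* and at 16.29 and 15.10 against 14.63 and 14.05 in control pools. It was 3.48-fold lower in *Pparg-cKO* ureters (-1.80 ± 0.19, adjusted p = 0.0201 with limma) and just missed the threshold in control ureters (-1.36 ± 0.19, adjusted p = 0.0527). *Cx3cl1*, the membrane-bound fractalkine, had 13.82 and 13.96 with DMSO against 13.56 and 13.04 with purmorphamine in *Pparg-cKO* and 14.00 and 13.58 against 13.28 and 12.48 in control pools and was called in neither (-0.59 ± 0.20, adjusted p = 0.171 and -0.91 ± 0.20, adjusted p = 0.104). *Cxcl10*, the interferon-induced ligand of CXCR3, varied between the sexes, with 11.70 and 12.76 with DMSO against 11.23 and 9.89 with purmorphamine in *Pparg-cKO* and 12.22 and 12.10 against 11.17 and 10.46 in control pools, and was not called (-1.67 ± 0.56, adjusted p = 0.172 and -1.35 ± 0.56, adjusted p = 0.280). A second tested probe of *Cxcl10* had smaller values, -0.49 and -0.37. The 5 tested homeostatic and mucosal CC ligands, *Ccl17*, *Ccl19*, *Ccl25*, *Ccl27a* and *Ccl28*, gave 0 calls for purmorphamine by limma in either genotype, with log2 fold changes of -0.34 to 0.60 in *Pparg-cKO* and -0.68 to 0.51 in control ureters.

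**Figure D2:**
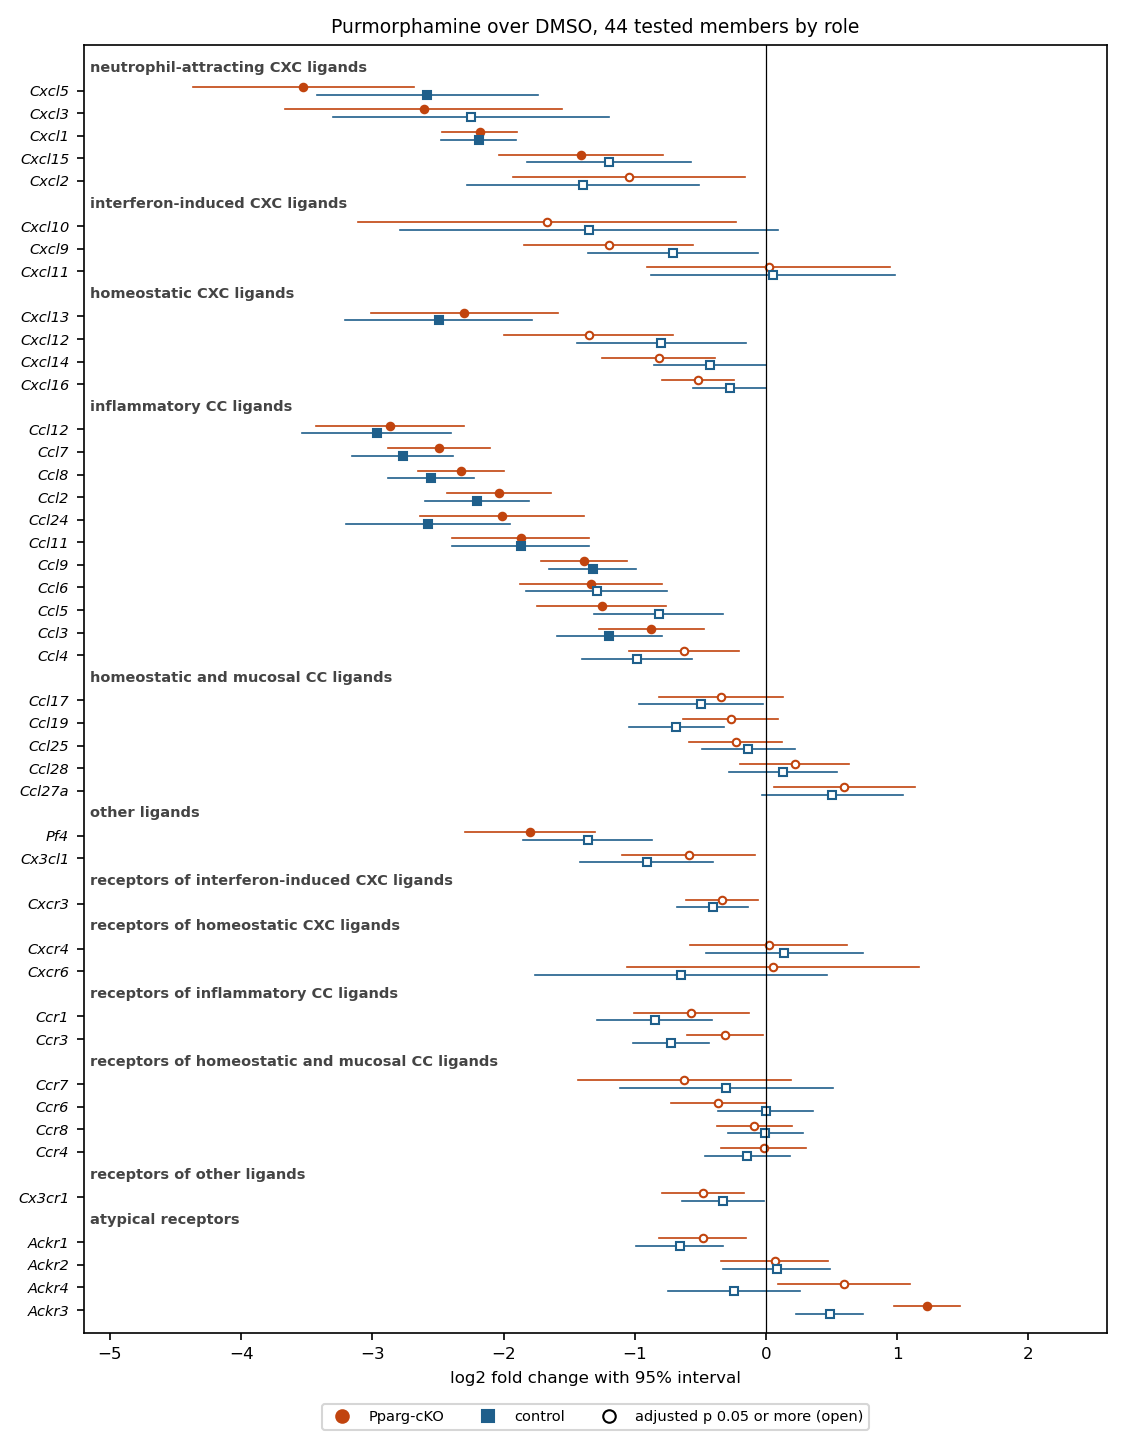
Log2 fold change of purmorphamine over DMSO (x axis) with its 95% interval for 44 of the 45 tested members, grouped by role, in *Pparg-cKO* (circles) and control ureters (squares), with open symbols for an adjusted p of 0.05 or more. The intervals of the neutrophil-attracting and inflammatory CC ligands lie below 0, those of the homeostatic and mucosal CC ligands lie nearer to 0, and *Ackr3* is the member farthest to the right.

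The plot of fold changes by role shows smaller values for most receptors than for the inflammatory ligands. At an unadjusted p under 0.05, limma gave 6 of 15 receptors lower in each genotype, with 2 higher in *Pparg-cKO* and 1 in control ureters. *Ackr3*, the scavenger that removes CXCL12, was the receptor called higher in *Pparg-cKO* ureters. Its levels were 13.90 and 14.12 with DMSO and 15.09 and 15.39 with purmorphamine in *Pparg-cKO* pools and 14.13 and 14.18 against 14.62 and 14.66 in control pools. Purmorphamine pools were the higher ones in both genotypes, 2.34-fold in *Pparg-cKO* ureters (1.23 ± 0.10, adjusted p = 0.0149, 95% interval 0.97 to 1.48), and not past the threshold in control ureters (0.49 ± 0.10, adjusted p = 0.0962), both with limma. Without the female *Pparg-cKO* array the value of 1.19 missed the threshold (adjusted p = 0.0703). *Cxcr4*, the signaling receptor of CXCL12, was at 10.53 and 10.47 with DMSO against 10.40 and 10.65 with purmorphamine in *Pparg-cKO* and 10.49 and 9.66 against 10.19 and 10.25 in control pools. The 95% interval of its change in *Pparg-cKO* ureters, -0.58 to 0.62 (0.02 ± 0.23, adjusted p = 0.980 with limma), leaves room for a change in either direction.

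*Ackr4*, the scavenger of CCL19, CCL21 and CCL25, was at 11.35 and 10.58 with DMSO against 11.61 and 11.52 with purmorphamine in *Pparg-cKO* and at 10.61 and 10.55 against 10.53 and 10.14 in control pools. The purmorphamine pool was the higher on the *Pparg-cKO* arrays and the lower on the control arrays, and neither change was called (0.60 ± 0.20, adjusted p = 0.167 and -0.24 ± 0.20, adjusted p = 0.587). *Ackr1*, the Duffy antigen of venules, was at 8.48 and 8.47 with DMSO against 7.97 and 8.02 with purmorphamine in *Pparg-cKO* and at 8.89 and 8.90 against 8.42 and 8.05 in control pools, lower with purmorphamine on all 4 arrays but not called (-0.48 ± 0.13, adjusted p = 0.112 and -0.66 ± 0.13, adjusted p = 0.0911). *Ccr7*, the receptor of CCL19, was at 7.29 and 8.57 with DMSO against 7.33 and 7.29 with purmorphamine in *Pparg-cKO* and at 7.53 and 7.54 against 7.38 and 7.09 in control pools and was not called either (-0.62 ± 0.32, adjusted p = 0.344 and -0.30 ± 0.32, adjusted p = 0.691).

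**Figure D3:**
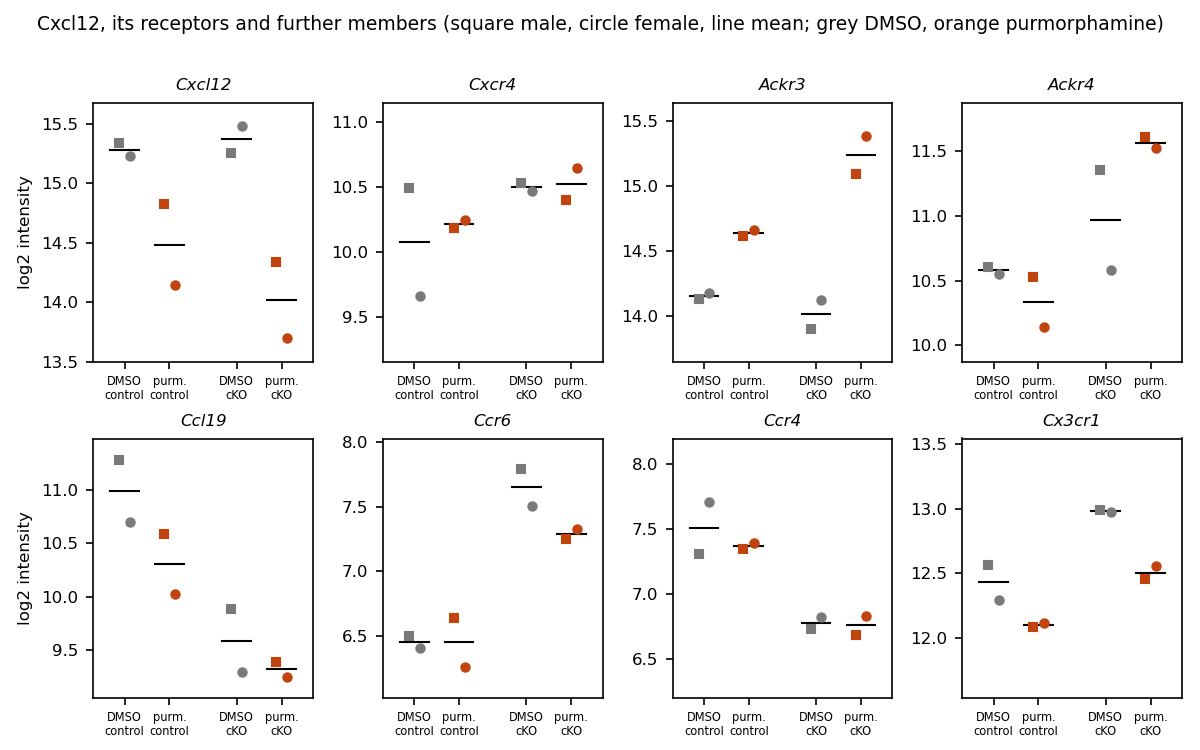
Log2 intensity (y axis) of the ligands *Cxcl12* and *Ccl19* and of 6 receptors in the 8 pools, with DMSO pools in grey and purmorphamine pools in orange, squares male, circles female and lines the mean of 2 pools; the y axes differ between panels and do not start at 0. *Ackr3* is highest in the *Pparg-cKO* pools with purmorphamine, and the *Pparg-cKO* pools lie below the control pools for *Ccl19* and *Ccr4* and above them for *Ccr6*.

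Whether the response to purmorphamine differed between the genotypes was tested by the difference of the effects, *Pparg-cKO* minus control. No member and no gene on the array (0%) passed the adjusted threshold in limma. At an unadjusted p under 0.05, 2 members were higher, *Ackr3* and *Ackr4*, beside 1.58% of all genes, and 0 were lower, beside 1.74%. The difference was 0.74 ± 0.14 for *Ackr3* (95% interval 0.38 to 1.10, adjusted p = 0.980) and 0.84 ± 0.28 for *Ackr4* (95% interval 0.13 to 1.55, adjusted p = 1.00). In each genotype 12 members were called lower that were also called in the other, among them *Ccl2*, *Ccl3*, *Ccl7*, *Ccl8*, *Ccl9*, *Ccl11*, *Ccl12*, *Ccl24*, *Cxcl1*, *Cxcl5* and *Cxcl13*, and these 12 were all 12 of the control list and 12 of the 17 of the *Pparg-cKO* list. Among them *Cxcl5* had the largest difference, -0.94 with a 95% interval of -2.14 to 0.25, and that of *Cxcl1* was 0.01 with -0.40 to 0.41. Calls made in *Pparg-cKO* ureters alone, such as *Pf4* and *Cxcl3*, were therefore not shown to be particular to that genotype.

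All tested macrophage and general leukocyte markers had negative fold changes with purmorphamine beside the ligands, although not all were called. In bulk RNA fewer cells of a type and less RNA per cell cannot be told apart. Of 10 tested macrophage markers, all of those on the array of 11 listed, 6 were lower in *Pparg-cKO* (median -0.85) and 5 in control ureters (median -0.90) with limma. At an unadjusted p under 0.05, 10 and 9 of the macrophage markers and 3 and 5 of the 5 general leukocyte markers were lower, beside 12.4% and 9.83% of all genes. The range of the macrophage markers was -1.57 to -0.30 in *Pparg-cKO* and -1.78 to -0.26 in control ureters, and *Mrc1*, a scavenger receptor of resident macrophages, had the largest drop. The summed macrophage marker intensity was 304100 to 348000 in *Pparg-cKO* pools with DMSO and 198400 to 200100 with purmorphamine, and 285200 to 369200 and 166400 to 233700 in control pools. Of 5 general leukocyte markers 2 and 1 were lower (medians -0.56 and -0.62), with sums of 47910 to 53150 and 33940 to 33970 in *Pparg-cKO* and 37570 to 53420 and 23160 to 31880 in control pools. Other immune lists had no calls in limma. Of 7 T cell markers 3 were above background in all 8 pools and 2, *Cd3d* and *Cd8a*, in none, and of the 4 tested 0 were called, with 1 lower at an unadjusted p under 0.05 in each genotype (medians -0.23 and -0.21). Of 5 mast cell markers 0 were called, also at an unadjusted p (medians 0.17 and 0.03). Of 3 tested dendritic cell markers 0 were called, with 1 higher at an unadjusted p in *Pparg-cKO* ureters (medians -0.13 and -0.12).

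Several ligands had larger drops than the macrophage and leukocyte markers. In *Pparg-cKO* ureters 12 members had a log2 fold change below that of every macrophage and leukocyte marker, 11 of them called, and in control ureters 10 did, 9 of them called. Against the neutrophil markers this was different in *Pparg-cKO* ureters, where only *Cxcl5* was below the lowest of them (-3.42), while in control ureters 17 members were (-1.18). Neither of these lowest markers was called, and each fell mainly on 1 array. *S100a8* in *Pparg-cKO* pools had 7.75 and 13.33 with DMSO against 6.82 and 7.42 with purmorphamine. *S100a9* in control pools had 8.79 and 6.23 against 6.44 and 6.21. Endothelial and mesenchymal lists were higher, with 2 and 1 of 6 endothelial markers called higher (medians 0.80 and 1.00) and 2 and 0 of 9 markers of mesenchyme and smooth muscle (medians 0.71 and 0.57). Among all genes 2.02% and 0.405% were called higher. Of 8 urothelial markers 3 were higher and 1 lower in *Pparg-cKO* ureters, and 2 were higher and 1 lower in control ureters. Of 3 tested fat cell markers 0 were called with purmorphamine (medians -1.25 and -0.35). Their summed intensity was 57790 to 89640 with DMSO and 7117 to 68640 with purmorphamine in *Pparg-cKO* pools, and 134700 to 186900 and 103900 to 132500 in control pools. Between the genotypes their medians were -1.60 with DMSO and -2.58 with purmorphamine, with 0 called. The part of these cell types in the ligand result was not tested.

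**Figure D4:**
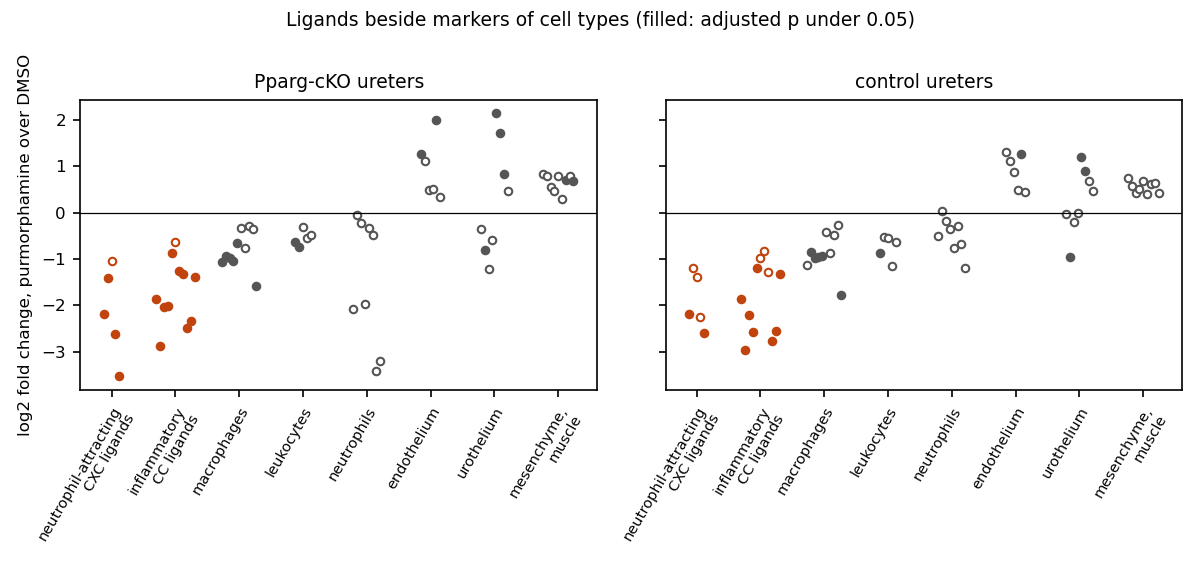
Log2 fold change of purmorphamine over DMSO (y axis) for the neutrophil-attracting CXC and inflammatory CC ligands (orange) and for markers of 6 cell types (grey), a point per gene, in *Pparg-cKO* (left) and control ureters (right), filled where the adjusted p was under 0.05. The ligands reach -3.53 in *Pparg-cKO* and -2.97 in control ureters, the macrophage markers -1.57 and -1.78, and the lowest neutrophil markers in *Pparg-cKO* ureters are open points.

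Between the genotypes few members differed. In *Pparg-cKO* relative to control ureters with DMSO, 2 of 45 were higher (4.44%) and 3 lower (6.67%), beside 1.98% higher and 1.92% lower among all genes, and the median was -0.14 against 0.01 for all genes. With purmorphamine 1 was higher (2.22%) and 0 lower, beside 1.26% and 1.88%, at a median of -0.15, and at an unadjusted p under 0.05 limma gave 4 higher and 3 lower, beside 6.68% and 8.85% of all genes. *Ccr6* was among the 2 higher with DMSO and was the 1 higher with purmorphamine, and it entered the tests only through the *Pparg-cKO* groups, where it was high. Without the male control array the medians were 0.14 with DMSO and 0.07 with purmorphamine. These 2 comparisons use the same DMSO and purmorphamine pools as those above. The calls between genotypes with DMSO were lost with any 1 of the 4 arrays left out, when fewer of all genes were called as well. None of the 5 neutrophil attractants or 11 inflammatory CC ligands was called between the genotypes by limma.

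*Ccl19*, which guides dendritic cells and T cells through CCR7, was lower without *Pparg*. With DMSO it was at 11.28 and 10.70 in control and 9.88 and 9.30 in *Pparg-cKO* pools, and with purmorphamine at 10.59 and 10.02 against 9.39 and 9.26. All 4 *Pparg-cKO* pools were below all 4 control pools, 2.63-fold with DMSO (-1.40 ± 0.28, adjusted p = 0.0461 with limma) and not past the threshold with purmorphamine (-0.98 ± 0.28, adjusted p = 0.140). Its 3 probes gave -1.63, -1.65 and -1.40 with DMSO. Leaving out an array moved the value with DMSO between -1.70 and -1.10, with adjusted p values of 0.0915 to 0.311.

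*Ccr6*, the receptor of CCL20 on lymphocytes and dendritic cells, was higher without *Pparg*. It had 7.79 and 7.51 in *Pparg-cKO* pools with DMSO and 7.25 and 7.32 with purmorphamine, whereas the control pools had 6.50 and 6.41 with DMSO and 6.65 and 6.26 with purmorphamine, the female ones of them not well above background. *Ccr6* entered the tests through its *Pparg-cKO* pools alone, the groups where it was high, and its values are given as a description. The genotypes were separate under both treatments, with differences of 1.19 ± 0.16 for DMSO and 0.83 ± 0.16 for purmorphamine. Its calls in these comparisons rest on that entry and are no support for a difference. With a control pool not well above background in each comparison, these values are no exact folds. Its ligand gene *Ccl20* was not detected. With DMSO the value of *Ccr6* lay between 1.05 and 1.36 when an array was left out.

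*Cx3cr1*, the fractalkine receptor of resident macrophages, was slightly higher, with 12.56 and 12.30 in control and 12.99 and 12.98 in *Pparg-cKO* pools with DMSO and 12.09 and 12.12 against 12.45 and 12.55 with purmorphamine. The pools were separate and the value with DMSO was 0.55 ± 0.11 (adjusted p = 0.0496), with 0.63, 0.55 and 0.51 for its 3 probes. Macrophage and leukocyte markers gave 0 calls between the genotypes with limma. *Ccr4*, the receptor of CCL17 and CCL22, was at 7.31 and 7.71 in control and 6.73 and 6.82 in *Pparg-cKO* pools with DMSO and at 7.34 and 7.39 against 6.68 and 6.83 with purmorphamine, separate in both, with -0.74 ± 0.14 (adjusted p = 0.0427) for DMSO in limma. *Ccr3*, the eotaxin receptor, was at 7.52 and 7.40 in control and 6.87 and 6.89 in *Pparg-cKO* pools with DMSO (-0.58 ± 0.11, adjusted p = 0.0424) and at 6.77 and 6.71 against 6.44 and 6.70 with purmorphamine. Both receptors lay close to the lowest level measured above background. With the replicate block the calls of *Cx3cr1*, *Ccr4* and *Ccr3* were lost, and over all alternatives *Cx3cr1* was called in 2 of 12, *Ccr4* in 4 of 12 and *Ccr3* in 4 of 11. With purmorphamine *Ackr4* was at 11.61 and 11.52 in *Pparg-cKO* against 10.53 and 10.14 in control pools and *Ackr3* at 15.09 and 15.39 against 14.62 and 14.66, both separate and both just short of the threshold (1.23 ± 0.25, adjusted p = 0.0543 for *Ackr4* and 0.60 ± 0.13, adjusted p = 0.0637 for *Ackr3* with limma).

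**Figure D5:**
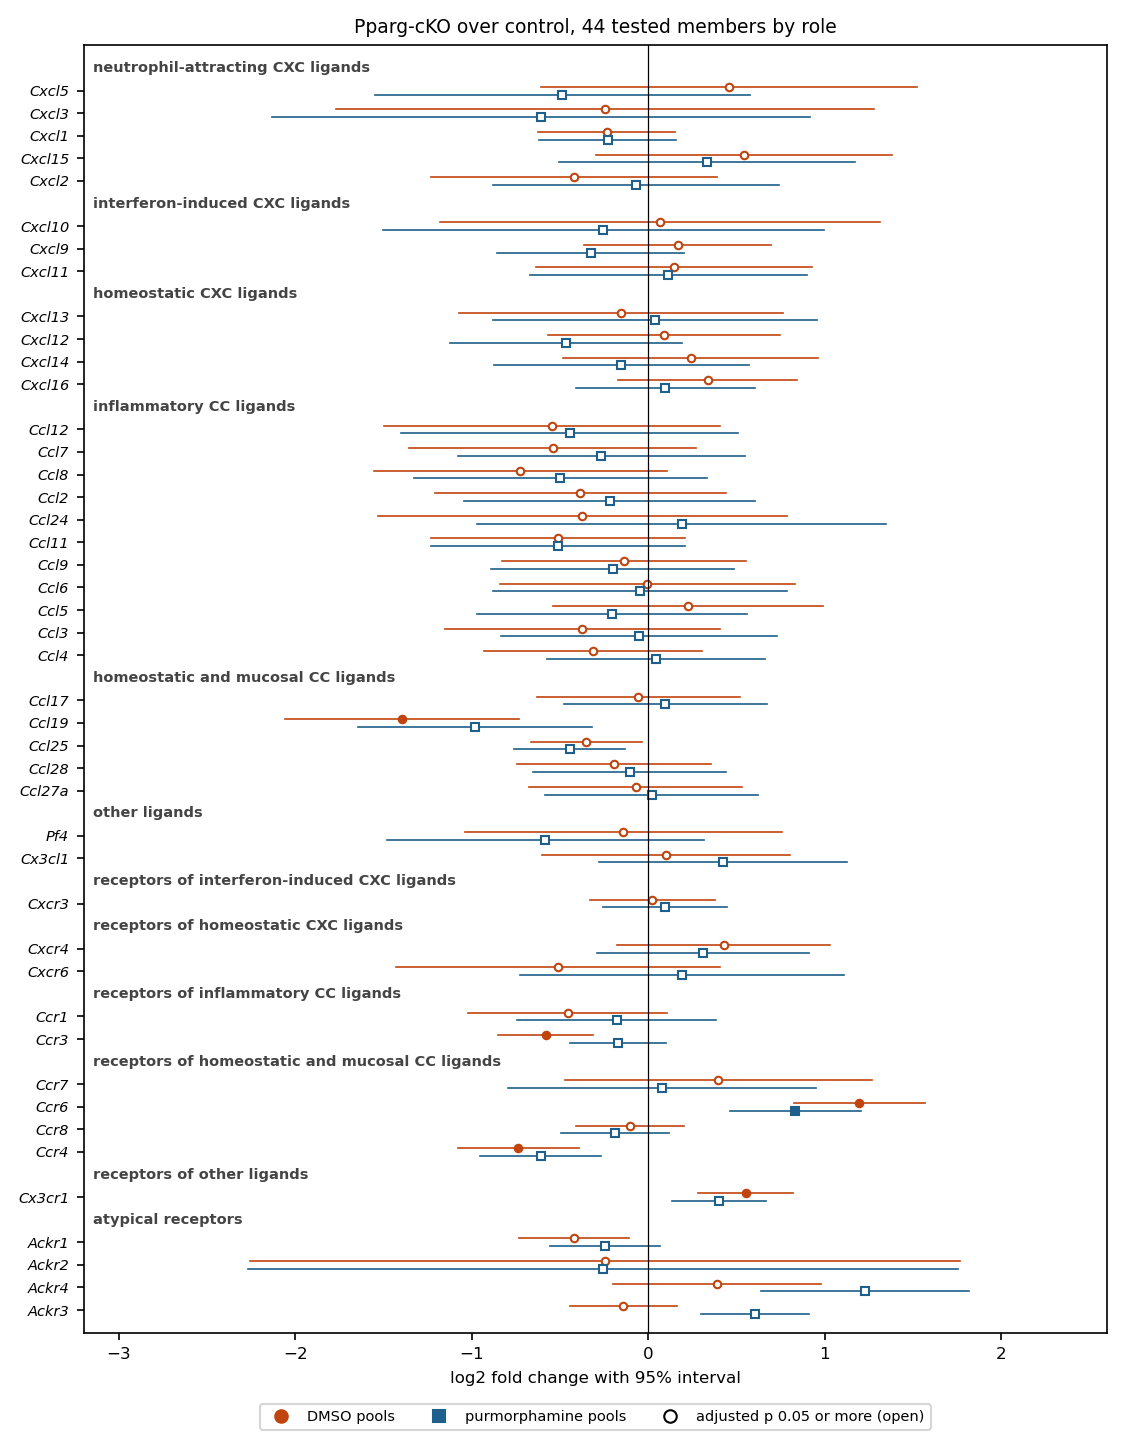
Log2 fold change of *Pparg-cKO* over control (x axis) with its 95% interval for 44 of the 45 tested members, grouped by role, in DMSO pools (circles) and purmorphamine pools (squares), with open symbols for an adjusted p of 0.05 or more. The intervals of all neutrophil-attracting and inflammatory CC ligands include 0, and the filled symbols are *Ccl19*, *Ccr3*, *Ccr4*, *Cx3cr1* and *Ccr6*.

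Some other genes of the pathway changed as well. Of 28 tested genes of chemokine signal transduction and processing, 5 were lower with purmorphamine in *Pparg-cKO* ureters and 3 in control ureters (medians -0.15 and -0.20). Among all genes 3.1% and 1.12% were lower. At an unadjusted p under 0.05, limma gave 11 and 12 of the 28 lower, beside 12.4% and 9.83% of all genes. By the same measure 1 and 2 were higher, beside 9.86% and 9.78%. *Rac2*, a GTPase of blood cells, *Vav1*, its exchange factor, and *Rgs16*, which shortens G protein signals, were lower in both. *Ppbp*, a platelet chemokine whose name falls outside the nomenclature, was lower in *Pparg-cKO* ureters (-2.85, adjusted p = 0.0447 with limma), as was *Dpp4*. *Dpp4*, a surface protease that trims CXCL12 and other chemokines, was at 7.92 and 6.55 in control and 9.84 and 9.62 in *Pparg-cKO* pools with DMSO, and at 6.71 and 6.36 against 7.32 and 7.24 with purmorphamine. It was the gene of this list that rose without *Pparg* (2.49, adjusted p = 0.0200) and fell with purmorphamine in *Pparg-cKO* ureters (-2.45, adjusted p = 0.0188), both with limma.

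Of 30 tested regulators of chemokine transcription and mRNA decay, 3 were lower with purmorphamine in each genotype (median -0.35 in both). Among all genes 3.1% were lower in *Pparg-cKO* and 1.12% in control ureters. At an unadjusted p under 0.05, limma gave 16 and 15 of the 30 lower, beside 12.4% and 9.83% of all genes, and 0 higher in either genotype. *Il1b*, the cytokine that induces many of these ligands through NF-κB, was at 9.95 and 9.53 with DMSO and 7.68 and 7.18 with purmorphamine in *Pparg-cKO* pools and at 10.48 and 9.84 against 8.05 and 7.69 in control pools. The log2 fold changes were -2.31 (adjusted p = 0.00977) and -2.29 (adjusted p = 0.0115) with limma. *Tlr4*, the receptor of endotoxin, was lower in both as well (-0.71 and -1.20). The NF-κB subunit genes *Rela* (-0.02 and -0.06) and *Nfkb1* (-0.26 and -0.41) were not called. *Nfkb1* and the other listed subunit genes, *Nfkb2*, *Rel* and *Relb*, were lower with purmorphamine on every array. *Rela* was higher with purmorphamine on the male control array (14.71 to 14.95) and lower on the others.

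The study's own filter carries no test and sets an intensity threshold of 100 and a change of 1.5-fold or more in both arrays. It was applied here with the threshold on the brighter pool, a choice of this re-analysis. By it 19 members were lower and 1, *Ackr3*, higher with purmorphamine in *Pparg-cKO* ureters, of 32 above the intensity threshold, beside 4.79% and 3.88% of all genes. In control ureters 21 of 33 members were lower, beside 3.69% of all genes. Beyond the members called by limma the filter took in *Cxcl2*, *Cxcl12* and *Cxcl14* in *Pparg-cKO* ureters and *Ackr1*, *Ccl4*, *Ccl6*, *Ccl19*, *Cx3cl1*, *Cxcl2*, *Cxcl3*, *Cxcl10* and *Pf4* in control ureters. *Cxcl15*, called lower by limma in *Pparg-cKO* ureters, was below the intensity threshold and did not pass. Between the genotypes only *Ccl19* was lower with DMSO, of 33 members (2.92% of all genes), and with purmorphamine *Ccl19* was lower and *Ackr4* higher, of 29 members (3.23% and 3.06% of all genes).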

How the data were processed

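RNA of 8 pools was measured on 4 two-color arrays that lay on a single slide. Per the file headers, the scanner software (Agilent Feature Extraction, 10.7.3.1 in the submitters' notes) gave mean and background intensities without normalization and processed intensities with background and dye bias removed. The deposited log10 ratio served to check the dyes, as did the deposited table's score, a signed fold change whose normalization is not stated. Mean intensities were corrected by normexp (offset 50) and loess, the 4 spots of a probe averaged and, for levels and genotypes, channels scaled by Aquantile (limma 3.58.1, R 4.3.3, data.table version 1.17.8). Genotypes were compared across arrays with limma's separate-channel model (intraspot correlation 0.0593 on 4000 probes), treatments by log ratios. Tested were 27064 probes of 20229 genes, the brightest probe standing for a gene, with Benjamini-Hochberg adjustment at 0.05. The methods' filter used processed intensities scaled to a 75th percentile of 1500, floored at 15. Named are members called, members passing that filter and members chosen for their role. A tested member is included in the counts and not reported here by itself. Members, lists and named genes were chosen with earlier results of these data known. Precision is limited by having only 4 arrays, p-values measure the spread between these pools only, and sex equals replicate number. The fits were tested on simulated data. Of 77 member probes, 69 matched a RefSeq accession of the same symbol, and 8 accessions were not found.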

Additional observations from a re-analysis of the deposited data

Results flagged for a closer look

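*Ackr4* had opposite signs in the 2 genotypes on every array, which was the reason to look at it. The log2 fold change of purmorphamine over DMSO was 0.25 (male) and 0.94 (female) in *Pparg-cKO* ureters, and -0.08 (male) and -0.41 (female) in control ureters. The difference of 0.84 had an unadjusted p of 0.0292 and an adjusted p of 1.00 in limma, so it failed the correction over all genes. The second probe of *Ackr4* gave a difference of 0.67 (unadjusted p = 0.0233).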

How the results depend on the processing

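Of 429 values of called log2 fold changes under the alternatives 0 changed sign, of 809 values of log2 fold changes that were not called 37 did, and of 59 medians 3 did, all without the male control array (0.14 and 0.07 between genotypes with DMSO and purmorphamine, and -0.02 for the difference of the effects). Of the counts 105 stayed within 1.5 times the reported value and 59 moved beyond it. For purmorphamine in *Pparg-cKO* ureters the 17 members called lower became 0 on the processed signals (28 at an unadjusted p under 0.05) and 0 with the deposited value table (26 unadjusted), settings under which 0% of all genes were called. Without the filter on dim probes they became 7, beside 0.632% of all genes instead of 3.1%. In control ureters the 12 became 0 (25 unadjusted), 0 (23 unadjusted) and 2, the last beside 0.0368% of all genes instead of 1.12%. The 1 higher member in *Pparg-cKO* ureters became 0 with the processed signals and 0 with the value table (1 unadjusted in each). With an array left out limma called 8 to 18 lower and 0 to 1 higher in *Pparg-cKO* and 0 to 19 lower in control ureters, a lone pool being assumed to vary like the others. Between genotypes with DMSO the 2 higher became 1 with processed signals (1.4% of all genes instead of 1.98%), median centring (1.69%) or no filter (1.21%). They became 0 with probes above background in all 8 channels (1 unadjusted, 1.39% of all genes). The 3 lower became 1 with processed signals (1.1% instead of 1.92%), no filter (0.969%) or that stricter filter (1.51%). With an array left out these calls were lost, and fewer of all genes were called as well. With purmorphamine the 1 higher, beside 1.26% of all genes, became 0 on processed signals, without the filter and with the stricter filter (4, 4 and 3 unadjusted). These settings called 0.549%, 0.642% and 1.04% of all genes higher. The count became 2 with median centring (1.64%) or the mean over probes (1.27%) and 3 with an intensity trend (1.39%). The call was lost with an array left out. The study's filter without its intensity threshold gave 1 higher and 4 lower with DMSO and 2 higher and 2 lower with purmorphamine, a fold of 2 gave 0 lower with purmorphamine, and single replicates gave 1 to 11 higher and 1 to 13 lower with DMSO, 1 to 4 and 2 to 6 with purmorphamine, and 1 to 4 higher for purmorphamine in *Pparg-cKO* and 1 to 2 in control ureters.

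Pools with the same replicate number are alike in sex and dye and not in their animals, and the deviations of pools of the same number from their group means had a correlation of -0.17 with DMSO and 0.48 with purmorphamine over probes, so the numbers were not taken to pair the samples. With the replicate block, limma called 1 member higher and 1 lower between genotypes with DMSO and 0 higher with purmorphamine (4 unadjusted), with the calls of *Ccr3*, *Ccr4* and *Cx3cr1* lost, and the same with dye added to the block. Of all genes the block called 0.979% higher and 0.682% lower with DMSO and 0.395% higher with purmorphamine. With dye added these shares were 1.33%, 1.16% and 0.573%. For the effects of purmorphamine the block gave 18 lower in *Pparg-cKO* ureters, 15 of them shared with the fit without it, and 14 in control ureters, 10 of them shared. Among all genes 3.1% and 1.4% were lower with the block.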

Other observations

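*Ackr2*, the scavenger of inflammatory CC ligands, separated the replicates and not the groups. Its log2 intensities were 8.75, 8.55, 8.36 and 8.50 in the male pools and 6.92, 7.27, 6.82 and 6.81 in the female pools, so that all 4 male pools lay above all 4 female pools. Sex and replicate number cannot be told apart in this design, and the pattern was noticed after the values had been seen. Between treatments *Ackr2* had small log2 fold changes of 0.07 in *Pparg-cKO* and 0.08 in control ureters, neither of them called by limma with Benjamini-Hochberg adjustment.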
